A study of Mus musculus with 11 samples.

Results

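The genes described here are 8 transcription factor genes that mark position in the embryo, namely the T-box genes Tbx2, Tbx3, Tbx4, Tbx5, Tbx15, Tbx18 and Tbx20 and the homeobox gene Pitx1. They were taken by symbol from a table of 21684 genes, and all 8 were in it. A filter on low counts left 13332 genes for testing, among them 5 of the 8. These were Tbx2, Tbx3, Tbx4, Tbx15 and Tbx18, each with at least 94 counts in every library, so that none passed through 1 group alone. Tbx5, Tbx20 and Pitx1 were at or near 0 counts and are given by their counts only.

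RNA was sequenced from NIH/3T3 cells, an established mouse embryonic fibroblast line, in 4 groups: WT with 2 libraries, and knockouts (KO) of 3 genes with 3 libraries each, labelled Xap5 KO, Nono KO and Sox5 KO. Every group, WT included, had been kept without serum for 24 h, a treatment under which these cells form a primary cilium, and the study asked which genes depend on Xap5, Nono and Sox5 in that state. The labels name no separate clones, so loss of a gene and the particular clone that carries the loss cannot be told apart, and p-values measure the spread between these libraries, which may be technical. All 3 knockouts are compared with the same 2 WT libraries.

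T-box proteins bind DNA through a shared domain and act as activators or repressors in limb, heart, lung and body wall. Tbx2 and Tbx3 are mostly repressors, Tbx4 and Tbx5 act in the hindlimb and forelimb fields and in lung and heart, Tbx15 and Tbx18 pattern dermis, skeleton and epicardium, and Tbx20 acts in the heart. Pitx1 is a paired-like homeobox factor of the hindlimb that lies upstream of Tbx4. Fibroblasts keep part of such a code of position after the embryo, so the set expressed differs with the origin of the cells.

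Library totals ran from 30205878 to 43498383 counts, and 3 counts, the limit that a count of 0 allows, corresponded to 0.0681 to 0.102 CPM (counts scaled to sequencing depth, with TMM library sizes). Limits of this kind cover counting error only. An excess of even counts leaves undecided whether mates of a read pair were counted separately, in which case depths, this limit and the lower bounds of folds taken against 3 counts would refer to mates and not to fragments. The targeted gene was at 12.1% of WT in Xap5 KO (mouse symbol Fam50a), 8.99% in Nono KO and 28.1% in Sox5 KO. Sox5 RNA was also at 28.7% of WT in Xap5 KO and 16.3% in Nono KO, so its level alone does not set the Sox5 KO libraries apart. All 14 fibroblast markers were detected, with a summed level of 26560 to 26730 CPM in WT, 20300 to 21650 in Xap5 KO cells, 52930 to 57890 in Nono KO cells and 22400 to 22830 in Sox5 KO cells. The 9 epithelial markers summed to at most 0.497 CPM.

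The promoter windows of Tbx18 and Tbx4 are shown because Tbx18 was higher in all 3 knockouts, whereas Tbx4 was lower in Xap5 KO and higher in Nono KO. Windows came from RefSeq on GRCm38.p6 and run from 250 bases before to 50 bases after the start of the gene. The 3 members matched were Tbx4, Tbx18 and Tbx20. The 250 bases before the start are printed 5′ to 3′ on the strand of the gene, with the T-box core GGTGT in capitals. Tbx18 lies on the minus strand at chr9:87731261-87731510 and Tbx4 on the plus strand at chr11:85896515-85896764.
Tbx18: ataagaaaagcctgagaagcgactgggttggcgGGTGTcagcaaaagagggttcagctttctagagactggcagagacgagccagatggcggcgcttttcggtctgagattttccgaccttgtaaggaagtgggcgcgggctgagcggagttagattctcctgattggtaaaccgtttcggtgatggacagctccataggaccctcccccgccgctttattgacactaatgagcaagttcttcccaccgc
Tbx4: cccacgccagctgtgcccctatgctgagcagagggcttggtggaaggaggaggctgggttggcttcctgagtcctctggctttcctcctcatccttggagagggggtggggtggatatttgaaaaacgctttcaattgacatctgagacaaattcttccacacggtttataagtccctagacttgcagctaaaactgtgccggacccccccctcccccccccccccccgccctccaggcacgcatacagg
Both strands of each whole window of 300 bases were searched for GGTGT, for the longer T-box site GGTGTGA that contains it, for the Sox core AACAAT and for the Pitx site TAATCC. The Tbx18 window held 1 GGTGT, which begins 217 bases before the start, and no other match. These letters occur in 41.6% of the 32851 mouse windows, so their presence is common. The Tbx4 and Tbx20 windows held none of the 4 motifs. Among all windows, 3.98% held GGTGTGA, 10.7% held AACAAT and 7.06% held TAATCC. GC content was 51.7% for Tbx18, 59.0% for Tbx4 and 68.3% for Tbx20, against a median of 52.7% over all windows. A match describes the letters only.

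In WT cells the 5 expressed members differed widely in level. Per kilobase of the longest transcript, Tbx15 stood at 23.3 ± 0.83 CPM per kb (SD, n = 2), Tbx3 at 12.6 ± 0.10, Tbx18 at 7.16 ± 0.72, Tbx4 at 3.24 ± 0.46 and Tbx2 at 1.91 ± 0.14. Tbx15 thus led, and Tbx4, the hindlimb and lung factor, was present at a lower level while its forelimb counterpart Tbx5 had no counts. In Sox5 KO the order changed, with Tbx18 at 16.0 CPM per kb, above Tbx3 at 3.98 CPM per kb. Tbx18 was also above Tbx3 in the mean of Xap5 KO (11.7 against 10.6 CPM per kb) and of Nono KO (11.96 against 7.20 CPM per kb). The order within a group was not tested.

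**Figure D1:**
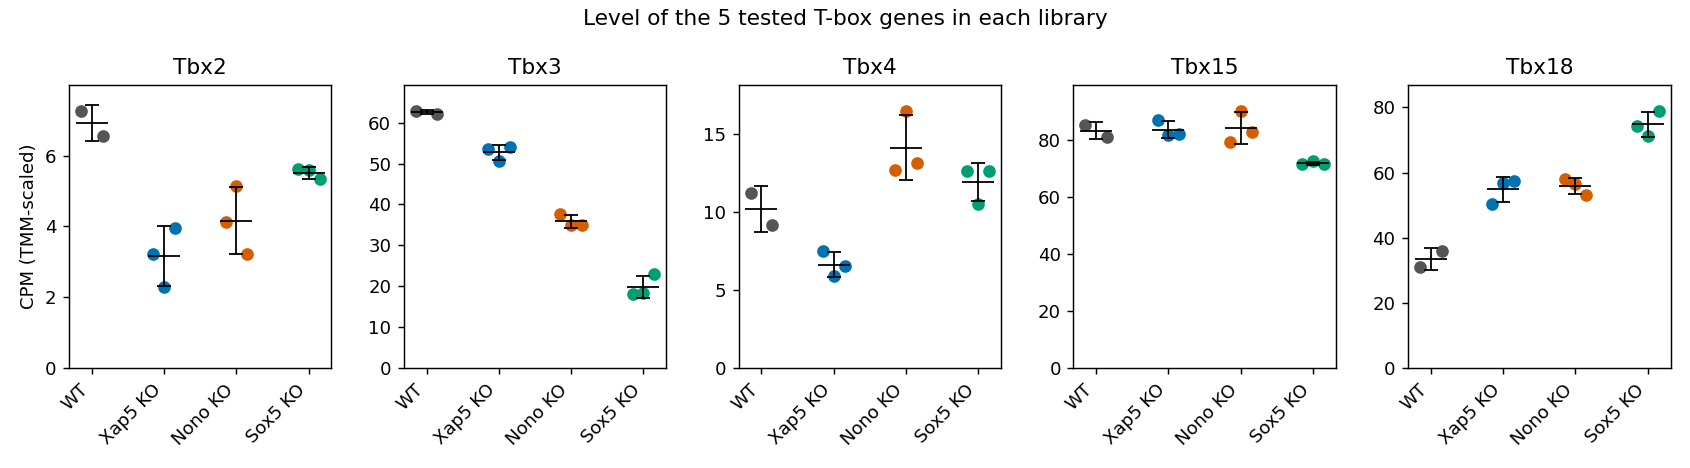
Level of the 5 expressed members in each of the 11 libraries, in CPM by group (points, libraries; bars, group means). Tbx3 falls stepwise from WT to Sox5 KO, Tbx18 is higher in every knockout library than in both WT libraries, and Tbx15 is nearly level outside Sox5 KO.

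Tbx3 fell and Tbx18 rose in every knockout, both most in Sox5 KO, while Tbx2, Tbx4 and Tbx15 passed the test in some knockouts and not in others. In bulk RNA, fewer cells that express a gene and less RNA per cell cannot be told apart. With edgeR's quasi-likelihood test and Benjamini-Hochberg adjustment over all tested genes, 4 of the 5 tested members were called in Xap5 KO (1 higher, 3 lower), beside 45.5% of all tested genes. In Nono KO 4 were called (2 higher, 2 lower), beside 48.6% of all genes, and in Sox5 KO 3 were called (1 higher, 2 lower), beside 60.9%. These shares are high throughout the transcriptome, so the counts do not set the members apart. Tbx18 was the member called higher in all 3 knockouts, as were 8.33% of tested genes, and Tbx3 the member called lower in all 3, as were 7.61%. The median log2 fold change of the 5 members was -0.25 in Xap5 KO cells, 0.02 in Nono KO cells and -0.21 in Sox5 KO cells, beside 0.00, -0.02 and -0.01 over all tested genes. The WT libraries also stood apart from every knockout in the 9 tested genes of chromosome Y, which summed to 8020 to 8978 counts in WT, 0 in each Xap5 KO library, 2 to 16 in Nono KO and 0 to 2 in Sox5 KO. A difference shared by all 3 knockouts and a difference of these WT libraries from the cells that gave the knockouts cannot be told apart. Without WT replicate 1 the count in Xap5 KO was 2, because Tbx3 and Tbx4 were no longer called.

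**Figure D2:**
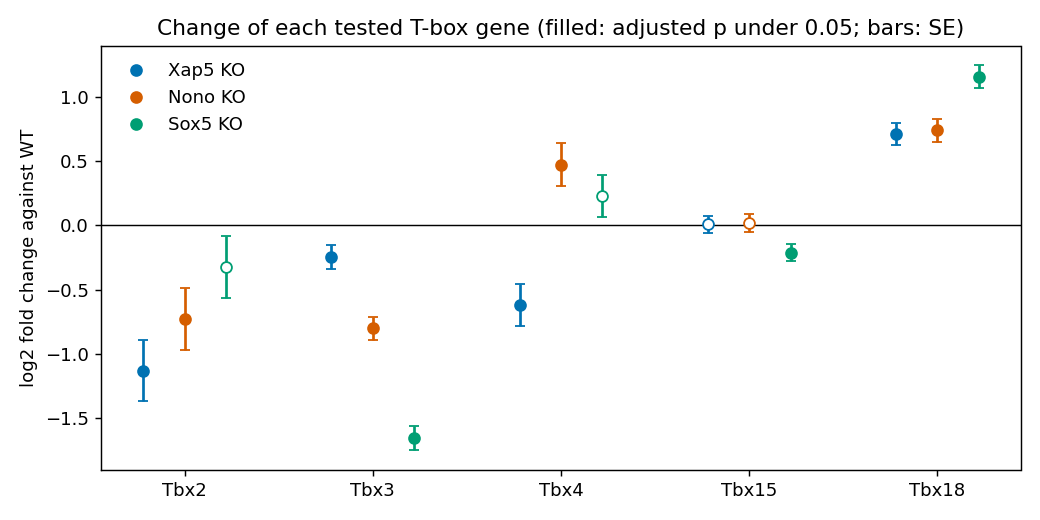
Log2 fold change of the 5 tested members in each knockout against WT, with bars of 1 standard error from the edgeR fit; filled symbols passed an adjusted p of 0.05. Tbx3 is below 0 and Tbx18 above 0 in all 3 knockouts, and Tbx4 lies on opposite sides of 0 in Xap5 KO and Nono KO.

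Tbx3 (ENSMUSG00000018604, chromosome 5), a repressor of limb, mammary gland and heart development, had the largest change of any member. Its levels were 62.9 and 62.2 CPM in WT, 53.6, 50.6 and 54.0 in Xap5 KO, 37.7, 35.0 and 34.9 in Nono KO, and 18.1, 18.5 and 22.9 in Sox5 KO. The 4 groups did not overlap, and the order WT, Xap5 KO, Nono KO, Sox5 KO held for each pair of neighbours by the test. Relative to WT, the level was 84.3% ± 3.0 (SD, n = 3) in Xap5 KO cells, 57.3% ± 2.6 in Nono KO cells and 31.7% ± 4.3 in Sox5 KO cells. The log2 fold change in Sox5 KO was -1.66 (SE 0.09, edgeR adjusted p = 2.91e-12), larger in size than that of 89.1% of tested genes. In Nono KO it was -0.80 (SE 0.09, edgeR adjusted p = 3.12e-07).
In Xap5 KO it was -0.25 (SE 0.09, edgeR adjusted p = 0.0349), and this call was lost without WT replicate 1 (adjusted p = 0.124), without WT replicate 2 (0.108) or without Xap5 KO replicate 2 (0.0934), and with a correction for transcript length and GC content (log2 fold change -0.20, adjusted p = 0.0713). Between knockouts, Tbx3 was higher in Xap5 KO than in Nono KO (log2 difference 0.56, SE 0.08, edgeR adjusted p = 1.04e-05) and higher in Nono KO than in Sox5 KO (0.86, SE 0.09, edgeR adjusted p = 2.52e-08). The antisense RNA Tbx3os1 overlaps exons of Tbx3 on the other strand, and reads of the pair cannot be told apart where strand was not used.

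Tbx18 (ENSMUSG00000032419, chromosome 9), a factor of epicardium, ureter mesenchyme and sclerotome, moved the other way. It stood at 31.1 and 35.9 CPM in WT, 50.4, 56.7 and 57.4 in Xap5 KO, 58.1, 56.6 and 53.1 in Nono KO, and 74.2, 71.2 and 79.0 in Sox5 KO. All 9 knockout libraries were above both WT libraries, and all 3 Sox5 KO libraries were above the rest. The level relative to WT was 164% ± 11 in Xap5 KO cells, 167% ± 7.6 in Nono KO cells and 223% ± 12 in Sox5 KO cells (SD, n = 3 each). Log2 fold changes were 0.71 (SE 0.09, edgeR adjusted p = 9.52e-07), 0.74 (SE 0.09, edgeR adjusted p = 4.56e-07) and 1.16 (SE 0.09, edgeR adjusted p = 3.41e-10) in that order.
Xap5 KO and Nono KO did not pass the test against each other for Tbx18 (log2 difference -0.03, SE 0.08, edgeR adjusted p = 0.783), and Sox5 KO was above both (adjusted p = 2.93e-05 against Xap5 KO, 5.87e-05 against Nono KO). Genes of chromosome 9 had a median log2 fold change of 0.35 in Nono KO. With each chromosome's median removed, Tbx18 in Nono KO was 0.39 (edgeR adjusted p = 0.000857). With the same correction the difference between Xap5 KO and Nono KO became 0.20 and passed the test (adjusted p = 0.0339). The transcript D030062O11Rik overlaps exons of Tbx18 on the other strand.

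Tbx15 (ENSMUSG00000027868, chromosome 3), which patterns dermis and skeleton, was the most abundant member per length and had the smallest log2 fold change of the 5 tested members in each knockout. Its levels were 85.3 and 81.1 CPM in WT, 87.1, 81.8 and 82.1 in Xap5 KO, 79.4, 90.2 and 82.8 in Nono KO, and 71.5, 72.5 and 71.5 in Sox5 KO. Xap5 KO and Nono KO overlapped WT, whereas the 3 Sox5 KO libraries were below all others. The log2 fold change was 0.01 in Xap5 KO (SE 0.07, edgeR adjusted p = 0.945) and 0.02 in Nono KO (SE 0.07, edgeR adjusted p = 0.869), smaller than in all but 1.55% and 3.16% of tested genes. In Sox5 KO it was -0.21 (SE 0.07, edgeR adjusted p = 0.0110), 86.3% ± 0.65 of WT.
Genes of chromosome 3 had a median log2 fold change of -0.22 in Sox5 KO, and with each chromosome's median removed the Tbx15 value was 0.00 (adjusted p = 0.969). The call was also lost without WT replicate 1 (adjusted p = 0.0950).

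Tbx4 (ENSMUSG00000000094, chromosome 11), the hindlimb and lung mesenchyme factor, fell in Xap5 KO and rose in Nono KO. It stood at 11.2 and 9.17 CPM in WT, 7.49, 5.89 and 6.52 in Xap5 KO, 12.7, 16.5 and 13.2 in Nono KO, and 12.7, 10.5 and 12.7 in Sox5 KO. Xap5 KO lay below and Nono KO above both WT libraries, and Sox5 KO overlapped WT. The log2 fold change was -0.62 in Xap5 KO (SE 0.17, edgeR adjusted p = 0.00411) and 0.47 in Nono KO (SE 0.17, edgeR adjusted p = 0.0226). In Sox5 KO it was 0.23 (SE 0.17, edgeR adjusted p = 0.246), which did not pass.
Xap5 KO and Nono KO differed by -1.09 (SE 0.15, edgeR adjusted p = 2.91e-06), so the contrast between these knockouts was larger than either change from WT. Both changes from WT rest on few libraries. The Tbx4 call in Xap5 KO was lost without WT replicate 1 (log2 fold change -0.48, adjusted p = 0.0785), and that in Nono KO without WT replicate 2 (0.34, adjusted p = 0.217) or without Nono KO replicate 2 (0.34, adjusted p = 0.113) and with library totals in place of TMM (0.31, adjusted p = 0.123).

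Tbx2 (ENSMUSG00000000093, chromosome 11), a repressor related to Tbx3 that lies next to Tbx4 in the genome, was the least abundant expressed member per length. Its levels were 7.27 and 6.56 CPM in WT, 3.22, 2.29 and 3.97 in Xap5 KO, 4.12, 5.14 and 3.23 in Nono KO, and 5.63, 5.59 and 5.33 in Sox5 KO. All 9 knockout libraries lay below both WT libraries. Xap5 KO and Nono KO overlapped each other, and Sox5 KO lay between them and WT. The log2 fold change was -1.13 in Xap5 KO (SE 0.24, edgeR adjusted p = 0.000575), larger in size than in 86.3% of tested genes. It was -0.73 in Nono KO (SE 0.24, edgeR adjusted p = 0.0148) and -0.33 in Sox5 KO (SE 0.24, edgeR adjusted p = 0.250), the latter not passing the test.
No pair of neighbours in the order WT, Sox5 KO, Nono KO, Xap5 KO passed, although Xap5 KO was below Sox5 KO (log2 difference -0.81, SE 0.22, edgeR adjusted p = 0.00344). The Tbx2 call in Nono KO was lost without WT replicate 1 (adjusted p = 0.0995), without Nono KO replicate 3 (0.0632) and with a correction for transcript length and GC content (log2 fold change -0.51, adjusted p = 0.0798).

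The other 3 members had almost no RNA. Tbx5 (ENSMUSG00000018263, chromosome 5), the forelimb and heart factor, had 0 counts in all 11 libraries. Tbx20 (ENSMUSG00000031965, chromosome 9), the heart factor, had 2 and 3 counts in WT, 0, 0 and 5 in Nono KO and 0 in the 6 libraries of the other two groups. Pitx1 (ENSMUSG00000021506, chromosome 13) had 6 counts in Xap5 KO replicate 2, 2 in Sox5 KO replicate 3 and 0 in the other 9 libraries. With the filter removed, neither Tbx20 nor Pitx1 was called in any of the 6 comparisons (lowest edgeR adjusted p = 0.258). Changes of a few counts were not detectable at this depth. Exons of Pitx1 overlap Gm28760 on the same strand and Gm47071 on the other, so its counts are uncertain. Tbx4 RNA was thus measured in cells with at most 6 counts of Pitx1, and Tbx2 and Tbx4 on chromosome 11 and Tbx3 on chromosome 5 were expressed while Tbx5, a near neighbour of Tbx3, was not detected.

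Between knockouts, 2 of the 5 tested members were called in Xap5 KO against Nono KO (Tbx3 higher, Tbx4 lower), where 53% of tested genes were called, 27.1% higher and 25.9% lower. All 5 were called in Xap5 KO against Sox5 KO (2 higher, 3 lower), beside 61.6% of genes (31.1% higher, 30.4% lower). In Nono KO against Sox5 KO 3 were called (Tbx3 and Tbx15 higher, Tbx18 lower), beside 63.5% (30.9% higher, 32.6% lower). Tbx15 was higher than in Sox5 KO by 0.22 in Xap5 KO (SE 0.06, edgeR adjusted p = 0.00407) and by 0.23 in Nono KO (SE 0.06, edgeR adjusted p = 0.00289) on the log2 scale. With each chromosome's median removed, these Tbx15 differences were 0.01 and -0.07 and did not pass. For Tbx4 the log2 difference of Xap5 KO from Sox5 KO was -0.85 (SE 0.15, edgeR adjusted p = 4.94e-05).

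The makeup of the summed level of the 8 members differed between groups more than the sum itself. The sum was 48.2 ± 0.81 CPM per kb in WT (SD, n = 2), 48.8 ± 0.87 in Xap5 KO cells, 48.4 ± 2.4 in Nono KO cells and 45.4 ± 1.5 in Sox5 KO cells (SD, n = 3 each). Tbx15 held 48.4% of the sum in WT and 44.4% to 48.7% in the knockout means. The share of Tbx3 was 26.1% ± 0.23 in WT, 21.7% ± 0.39 in Xap5 KO cells, 14.9% ± 1.1 in Nono KO cells and 8.75% ± 0.91 in Sox5 KO cells. The share of Tbx18 was 14.9% ± 1.7 in WT, 24.1% ± 1.9 in Xap5 KO cells, 24.7% ± 1.3 in Nono KO cells and 35.2% ± 0.71 in Sox5 KO cells. Shares of one sum are bound to each other, and they were not tested.

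**Figure D3:**
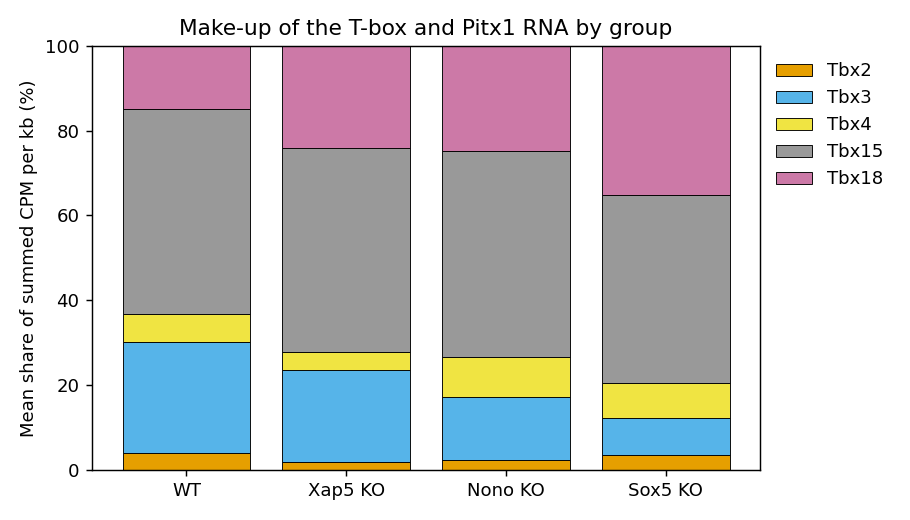
Mean share of each of the 5 tested members in the summed level of the 8 members (CPM per kb), in percent by group. The Tbx3 share shrinks and the Tbx18 share grows from WT to Sox5 KO, while Tbx15 holds between 44.4% and 48.7% in the group means.

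Across the 11 libraries, Tbx3 and Tbx18 had a Pearson r of -0.83 (log2 CPM), Tbx3 and Tbx15 of 0.76 and Tbx15 and Tbx18 of -0.65. The neighbours Tbx2 and Tbx4 had an r of 0.52, Tbx3 and Tbx4 of -0.51, and the other 5 pairs were between -0.26 and 0.16. These values describe libraries that fall into 4 groups and share their depth, and carry no test. Among all tested genes, those with a pattern most like Tbx3 were Ep400 (r = 0.996), Lancl3 (0.995) and Zfyve26 (0.989), over the same 11 libraries. For Tbx18 they were Stk25 (0.980), Ankrd1 (0.978) and Prkag1 (0.977). For Tbx15 they were H13 (0.963), Cpsf2 (0.952) and Rasal2 (0.950), for Tbx4 Anxa9 (0.977) and P3h4 (0.950), and for Tbx2 Nme7 (0.932), Ces2e (0.921) and Fhod1 (0.921). Lancl3 had a wider range than Tbx3, with log2 fold changes of -0.33 in Xap5 KO cells, -1.74 in Nono KO cells and -3.81 in Sox5 KO cells. Ankrd1, which encodes a muscle ankyrin repeat protein, had 1.83, 2.02 and 3.00 in the same order.

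Genes beside the members in the RefSeq order of GRCm38.p6 were examined next. The nearest entries were mostly long noncoding RNAs or pseudogenes with no row in the table, so the nearest tested genes that are no members are given, a choice made after values were seen. Beside Tbx3 and Tbx5, Med13l was at -1.32 (SE 0.07, edgeR adjusted p = 1.28e-12) and Rbm19 at -0.79 (SE 0.09, edgeR adjusted p = 6.02e-08) in log2 fold change in Sox5 KO, where Tbx3 also fell. In that knockout 30.3% of all tested genes were called lower. Over all alternatives the Med13l value in Sox5 KO ran from -1.43 to -0.64. In Nono KO Rbm19 was at -0.37 (edgeR adjusted p = 0.000935; not called with chromosome medians removed) and Med13l at -0.13 (adjusted p = 0.127). Genes of chromosome 5 had medians of -0.20 in Nono KO and -0.19 in Sox5 KO. Beside Tbx2 and Tbx4, Bcas3 fell in Nono KO (-0.49, edgeR adjusted p = 0.000155) and Brip1 rose in Xap5 KO (0.80, edgeR adjusted p = 0.00245). Beside Tbx18, Cep162 rose in Xap5 KO (0.43, edgeR adjusted p = 0.00129) and fell in Sox5 KO (-0.62, edgeR adjusted p = 1.40e-05), where Tbx18 rose, a fall no longer called with a correction for transcript length and GC content (-0.08). Wars2, beside Tbx15, fell in Sox5 KO (-0.57, edgeR adjusted p = 0.000165). Spag17, on the other side of Tbx15, and Nt5e, on the other side of Tbx18, were not called in any knockout. Neighbours of the untested Tbx20 and Pitx1 are not given. Whether neighbouring position bears on the members' values was not tested.

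Of 10 other T-box genes in the table, 3 passed the filter. Of these, 0 were called in Xap5 KO cells, beside 45.5% of all tested genes. In Nono KO cells 1 was called lower (25.1% of all tested genes), and in Sox5 KO cells 1 was called lower (30.3%). With 3 genes tested, no result about the family is read from these counts. Mga, which encodes a partner of Max with a T-box domain, was the gene called. It had 162 and 160 CPM in WT, 170, 176 and 167 in Xap5 KO, 130, 135 and 141 in Nono KO, and 99.6, 108 and 111 in Sox5 KO. Its log2 fold change was -0.25 in Nono KO (SE 0.06, edgeR adjusted p = 0.00191) and -0.60 in Sox5 KO (SE 0.06, edgeR adjusted p = 2.58e-08). With a correction for transcript length and GC content these were -0.08, no longer called, and 0.26, called in the other direction (adjusted p = 0.000566). In Xap5 KO the value was 0.09 (adjusted p = 0.241) and, with the correction, 0.25 (adjusted p = 0.00125), so no direction is given for Mga. Tbx6, a somite factor, and Tbr1, a neuronal factor, stayed under 1.5 CPM and were not called.

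Paired-like homeobox genes, the family of Pitx1, were largely silent. Of 23 genes in the table, 13 were at 0 in every library, Pitx3 among them, and 5 passed the filter. In Xap5 KO 1 was higher and 3 lower (23.2% and 22.3% of all tested genes), in Nono KO 1 and 2 (23.5% and 25.1%), and in Sox5 KO 0 and 3 (30.6% and 30.3%). With 5 genes tested, no result about the family is read from these counts. Prrx2, a factor of limb and facial mesenchyme, was lower in all 3 knockouts, at 133 and 144 CPM in WT, 94.9, 88.8 and 85.1 in Xap5 KO, 71.0, 77.5 and 68.7 in Nono KO, and 61.6, 56.2 and 61.3 in Sox5 KO. Its log2 fold changes were -0.63, -0.94 and -1.22 (edgeR adjusted p = 3.47e-07, 6.16e-10 and 5.94e-12), and no knockout library overlapped WT. Prrx1, its close relative, stood at 757 and 771 CPM in WT and fell in Xap5 KO (-0.38, edgeR adjusted p = 4.45e-05) and Sox5 KO (-0.59, edgeR adjusted p = 5.65e-08). With a correction for transcript length and GC content the Prrx1 value in Sox5 KO was -0.18, still called.
Shox2, a factor of the proximal limb and the sinus node, rose from 46.6 and 43.7 CPM in WT to 71.7 to 79.7 in Xap5 KO and 73.8 to 78.9 in Nono KO, and was at 26.0 to 28.9 in Sox5 KO. Its log2 fold changes were 0.75, 0.75 and -0.70 (edgeR adjusted p = 1.05e-07, 9.39e-08 and 1.23e-07). Otx1, a forebrain factor, had 33 and 14 counts in WT, 2, 2 and 0 in Xap5 KO, 0 in all Nono KO libraries, and 40, 32 and 29 in Sox5 KO. Relative to WT, Otx1 was at least 7.41-fold lower with Nono lost, taken against a floor of 3 counts per library (edgeR adjusted p = 0.000507). Its call in Xap5 KO was lost without WT replicate 1. Alx4 was under 0.5 CPM throughout and was not called.

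A list of 63 limb, heart and body-wall transcription factors had 38 tested genes, of which more were lower than higher in each knockout. In Xap5 KO 9 were higher and 17 lower, beside 23.2% and 22.3% of all tested genes. In Nono KO 7 were higher and 19 lower (23.5% and 25.1% of all genes), and in Sox5 KO 5 were higher and 24 lower (30.6% and 30.3%). The median log2 fold change of the list was -0.19, -0.27 and -0.65 in the same order, beside 0.00, -0.02 and -0.01 over all genes. The count higher in Xap5 KO was 4 without WT replicate 1, 5 without WT replicate 2 and 5 without Xap5 KO replicate 1, and without the last library the median was -0.35. Lower in all 3 were 10 genes of the list, beside 7.61% of all tested genes. Among them were Gata6, Meis2, Foxc2, Six4, Eya1, Zeb2 and Plagl1. Emx2 was the 1 gene of the list higher in all 3, beside 8.33% of all tested genes.
Foxc2, a forkhead factor of paraxial mesoderm, went from 60.9 and 61.0 CPM in WT to between 14.0 and 21.3 in the 9 knockout libraries, with log2 fold changes of -1.76, -1.96 and -1.65 (edgeR adjusted p = 3.66e-11, 5.04e-12 and 4.91e-11). Plagl1, an imprinted zinc finger gene, went from 63.9 and 64.6 CPM to between 13.6 and 27.3, and its largest change was -2.21 in Sox5 KO (edgeR adjusted p = 7.68e-14). Foxp1 rose in Xap5 KO (1.59) and Nono KO (1.58) and was at 0.25 in Sox5 KO (edgeR adjusted p = 8.66e-10, 6.48e-10 and 0.0759). In Sox5 KO the Foxp1 value was called without WT replicate 1 (0.40, adjusted p = 0.0304), with chromosome medians removed (0.60, adjusted p = 0.000222) and with the correction for transcript length and GC content (0.74, adjusted p = 3.10e-05). Mef2c, a MADS-box factor of muscle, was lower in Sox5 KO, at 8.15 ± 1.9 CPM against 47.8 ± 2.9 in WT (log2 fold change -2.55, edgeR adjusted p = 3.35e-05).
Nkx2-5, which partners T-box factors in the heart, had 186 and 205 counts in WT and 4, 0 and 3 in Nono KO (edgeR adjusted p = 5.93e-11), and rose in Sox5 KO to 7.52 to 10.4 CPM from 4.62 and 4.65 (log2 fold change 1.02, edgeR adjusted p = 0.00253). Of the 8 heart muscle markers, Myh6, Tnni3, Actn2, Myl2 and Myl7 were at 0 in every library. All 8, Nkx2-5 included, summed to 5.61 to 7.27 CPM in WT, 4.87 to 6.64 in Xap5 KO cells, 0.304 to 0.901 in Nono KO cells and 7.79 to 10.8 in Sox5 KO cells. Some calls rested on very few counts. Wt1 had 18, 20 and 6 counts in Xap5 KO against 0 in WT, and Pax3 had 27, 21 and 3 in Nono KO against 0, and both calls were lost without either WT replicate. Isl1, a factor of heart and hindlimb progenitors, had 8 and 5 counts in WT against 0 in Sox5 KO, a call lost without WT replicate 1 or any 1 of the Sox5 KO libraries. Others among the largest called changes were Lhx9 (-1.33) and Foxc1 (0.90) in Xap5 KO and Emx2 (0.97) and Pbx3 (0.45) in Sox5 KO, all log2 fold changes. Lhx9 also fell in Sox5 KO (-1.54, edgeR adjusted p = 6.38e-07). Foxc1 was lower in Sox5 KO (-0.63) and Pbx3 in Nono KO (-0.39), calls that some alternatives lost. Osr2 rose in Nono KO, to 11.6 ± 1.2 CPM from 5.32 ± 0.02 in WT. It was lower in Xap5 KO, with 99, 92 and 69 counts against 215 and 234 in WT. In Sox5 KO Osr2 was at -0.52, a call lost without Sox5 KO replicate 2 or 3. The calls of Emx2 in Xap5 KO and Pbx3 in Sox5 KO were lost without WT replicate 1.

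**Figure D4:**
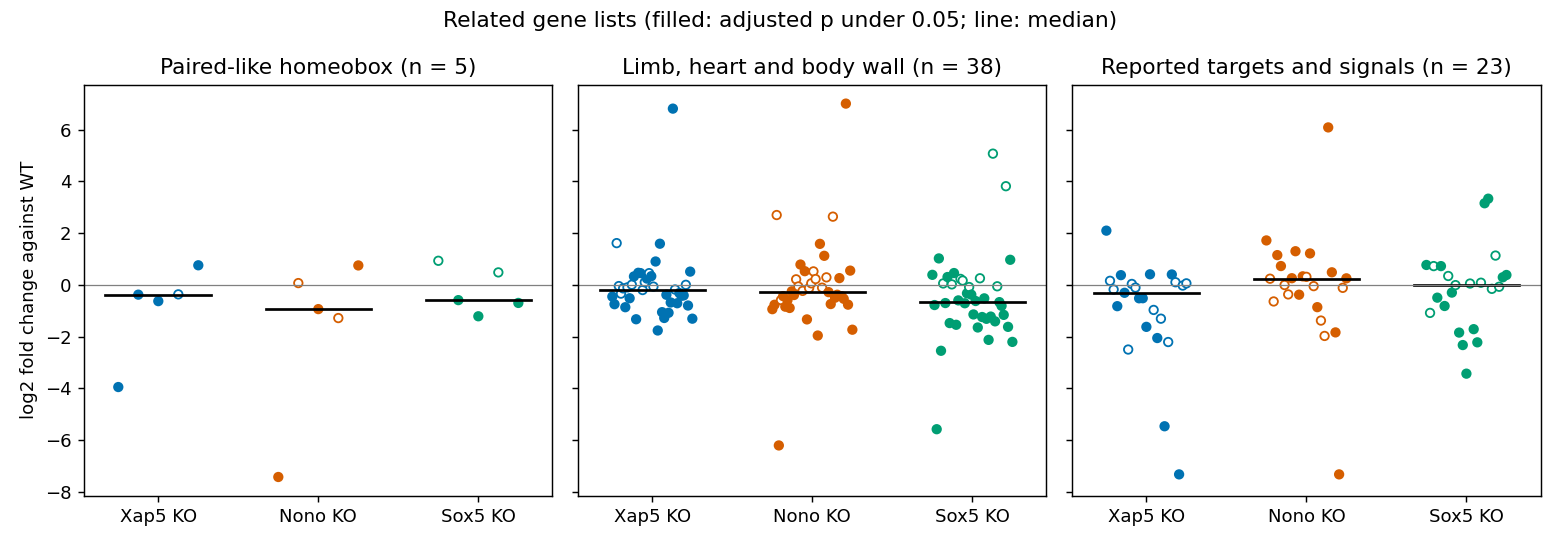
Log2 fold change of each tested gene in each knockout against WT (filled symbols, called genes; open symbols, genes not called; lines, medians). The lists shown are paired-like homeobox genes, limb, heart and body-wall transcription factors, and reported targets and signals. The limb, heart and body-wall list has 17 genes called lower and 9 higher for Xap5 KO, 19 and 7 for Nono KO, and 24 and 5 for Sox5 KO.

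The last list held 41 genes reported elsewhere as targets or signals of T-box and Pitx1 factors, 23 of them tested. In Xap5 KO 4 were higher and 8 lower, in Nono KO 10 and 4, and in Sox5 KO 6 and 8. Over all tested genes the shares called higher and lower were 23.2% and 22.3%, 23.5% and 25.1%, and 30.6% and 30.3%. The median log2 fold change of the list was -0.31, 0.24 and -0.01, beside 0.00, -0.02 and -0.01 over all genes. Leaving out WT replicate 1 gave a median of -0.10 for Xap5 KO, and leaving out Nono KO replicate 1 gave 0.13 for Nono KO. With the correction for transcript length and GC content the Nono KO median was 0.11, beside 0.00 over all genes. With library totals in place of TMM it was 0.08, beside -0.18 over all genes, with 8 higher and 5 lower. Without WT replicate 2 the count lower in Nono KO was 2. The median in Sox5 KO lay on either side of 0 when single libraries were left out. Fgf10, the limb and lung mesenchyme ligand that Tbx4 and Tbx5 activate, was higher in all 3, at 21.4 and 21.2 CPM in WT, 85.9, 94.9 and 91.7 in Xap5 KO, 68.3, 70.1 and 71.3 in Nono KO, and 34.7, 37.2 and 36.9 in Sox5 KO. Its log2 fold changes were 2.09 (SE 0.08), 1.72 (SE 0.08) and 0.77 (SE 0.08), with edgeR adjusted p = 9.59e-15, 1.63e-13 and 2.58e-08. Fgf10 was highest in Xap5 KO, and whether its level follows that of Tbx4 was not tested.
Cdkn1a, the cell-cycle inhibitor p21 that Tbx2 and Tbx3 repress, was higher in all 3, at 170 and 175 CPM in WT, 204 to 235 in Xap5 KO cells, 274 to 297 in Nono KO cells and 279 to 291 in Sox5 KO cells. Its log2 fold changes were 0.37, 0.73 and 0.72 (edgeR adjusted p = 7.04e-05, 7.69e-09 and 4.56e-09). Cdkn2a and Cdkn2b, other cell-cycle inhibitor genes on the list, were at 0 in every library, and so was Hoxc10. Wnt5a, a secreted signal of limb mesenchyme, was lower in all 3 (-2.06, -0.86 and -2.22, edgeR adjusted p = 5.87e-09, 0.000294 and 9.27e-10), as was the inhibitory Smad gene Smad6 (-0.52, -0.38 and -1.85, edgeR adjusted p = 0.00242, 0.0191 and 1.60e-10).
Has2, a hyaluronan synthase, was at 39.5 and 40.2 CPM in WT and 3.03, 3.97 and 4.08 in Sox5 KO (log2 fold change -3.43, edgeR adjusted p = 3.47e-06). Vcan, the proteoglycan versican, was at 585 and 576 CPM in WT and 105, 120 and 122 in Sox5 KO (-2.33, edgeR adjusted p = 7.54e-17). Kcnj2, a potassium channel gene, had 0 and 11 counts in WT and 432, 361 and 268 in Nono KO (edgeR adjusted p = 1.51e-06). Of the other called genes with the largest changes, Dll1, a Notch ligand, had 16 and 29 counts in WT and 0 in all Xap5 KO and Nono KO libraries. It was at least 6.96-fold lower in the former and at least 6.88-fold lower in the latter. Col2a1, the cartilage collagen, had 40 and 67 counts in WT, 3, 0 and 0 in Xap5 KO, and 367, 305 and 375 in Sox5 KO, where its call was lost without WT replicate 1. Ndrg1 rose in Nono KO, to 122.5 ± 6.4 CPM from 49.8 ± 1.1 in WT, and Tgfb2 (log2 fold change 0.41) and Atp2a2 (0.40) rose in Xap5 KO. Tgfb2 and Atp2a2 also rose in Nono KO, Atp2a2 with a log2 fold change of 0.48 (edgeR adjusted p = 4.61e-06). Tgfb2 had 3166, 2967 and 3531 counts there, against 1455 and 1549 in WT. Kcnj2 was also higher in Sox5 KO (3.33). Hey1 in Nono KO (-1.84, edgeR adjusted p = 0.0491) lost its call without either WT replicate and in several other alternatives.
How far any of these changes follows from a member's level was not tested.

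Markers of other cell types moved in parts of the series. The 7 endothelial markers, with Tie1 and Emcn at 0, summed to 13.5 to 15.7 CPM in WT, 33.5 to 35.7 in Xap5 KO cells, 2.96 to 4.81 in Nono KO cells and 7.92 to 10.8 in Sox5 KO cells. The 7 blood cell markers, with Cd3e at 0 among others, summed to 2.36 to 2.38, 3.01 to 3.38, 7.25 to 10.9 and 1.88 to 2.68 CPM in that order. The 7 skeletal muscle markers, with Myod1, Myf5 and Pax7 at 0, summed to 0.248 to 0.545 CPM in WT and 2.06 to 4.04 in Xap5 KO cells. The sum was 1.339 to 1.795 CPM in Nono KO cells and 1.793 to 2.305 in Sox5 KO cells. Des, 1 of these markers, had 0 counts in WT and was called higher in all 3 knockouts, as were 8.33% of tested genes. The 8 markers of cartilage and fat summed to 341 to 344 CPM in WT, 136 to 154 in Xap5 KO cells, 182 to 210 in Nono KO cells and 106 to 128 in Sox5 KO cells. Their part in the members' values was not tested.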

How the data were processed

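RNA-seq libraries of 11 NIH/3T3 samples were analysed from the table of estimated counts per gene that the authors deposited as whole numbers, so rounding changed nothing. They were taken as estimates because the value 2 occurs 3302 times and the value 1 only 857 times, which separate counting of the mates of read pairs would also give. HISAT2 2.1.0, StringTie 1.3.3b, DESeq2 1.12.4 and the build GRCm39 are named, without roles, per the submitters' processing notes. The annotation and the use of strand were not given in the sources used here. Depth was 30205878 to 43498383 counts per library.

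All 11 libraries were fitted together with edgeR 4.0.16 in R 4.3.3 (TMM, minimum count 10, minimum total 15, robust quasi-likelihood test, 1 mean per group), with Benjamini-Hochberg adjustment over 13332 genes and calls at an adjusted p under 0.05. The scripts were tested on simulated data. Members and lists were chosen with earlier results of these data known. Named were all members, all tested T-box and paired-like genes, the called genes with the largest changes in the other lists (3 in each direction per knockout), the 3 genes most like each tested member, and neighbours; a few genes that these rules name are not reported here. Genes called in all 3 knockouts were added after values were seen. Chromosome, transcript length, GC content and exon overlap came from GENCODE M21 on GRCm38, and other coordinates are not given. Alternatives were other scalings and filters, DESeq2 1.42.0, stricter thresholds, a replicate block, each library left out and 2 corrections added after seeing the data, for chromosome medians and for transcript length with GC content.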

Additional observations from a re-analysis of the deposited data

How the results depend on the processing

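Of 21 called differences of the 5 tested members in the 6 comparisons, 14 kept their direction and call in all 20 alternatives that keep the threshold, among them all 3 changes of Tbx18 from WT, those of Tbx3 in Nono KO and Sox5 KO, and that of Tbx2 in Xap5 KO. With a minimum of 2-fold added, the members called numbered 1 in Xap5 KO, 0 in Nono KO, 1 in Xap5 KO against Nono KO, 1 in Xap5 KO against Sox5 KO and 0 in Nono KO against Sox5 KO. In Sox5 KO against WT, Tbx3 (log2 fold change -1.66) and Tbx18 (1.16) stayed called with this minimum, and Tbx15 did not. At an adjusted p under 0.01 the count in Nono KO was 2. With each library left out in turn, 2 to 4 members were called in Xap5 KO, 3 to 4 in Nono KO, 2 to 3 in Sox5 KO, 2 to 3 in Xap5 KO against Nono KO, 5 in Xap5 KO against Sox5 KO and 3 to 4 in Nono KO against Sox5 KO. Leaving out a WT library leaves 1, which is assumed to vary like the other groups. With each chromosome's median removed, 5 differences changed sign: Tbx15 in Nono KO (-0.067) and in Xap5 KO against Nono KO (0.085), neither called before or after, Tbx15 in Sox5 KO (0.0040), Tbx15 in Nono KO against Sox5 KO (-0.071) and Tbx18 in Xap5 KO against Nono KO (0.20, called). Correcting for transcript length and GC content turned Mga in Sox5 KO to 0.26. Differences that passed only under an alternative were Tbx2 in Xap5 KO against Nono KO without Xap5 KO replicate 3 (-0.61), Tbx2 in Nono KO against Sox5 KO without Nono KO replicate 2 (-0.58) and Tbx4 in Nono KO against Sox5 KO with either correction (0.37 and 0.36). Apart from the corrections and left-out libraries, whose construction removes a shift or a sample, the cause was not tested. Library totals in place of TMM shifted the median log2 change over all genes to -0.18 (Nono KO) and -0.12 (Sox5 KO), and the share of higher calls in Nono KO from 48.4% to 30.2%. Deviations of same-numbered libraries correlated at -0.02 to 0.05 (15 pairs, mean 0.013), against -0.05 to 0.02 for other numbers (30 pairs, mean -0.006). Deviations were centred within each group, so these values are bound to each other and do not decide whether the numbers pair the libraries. With the replicate block, 4, 4 and 3 members were called against WT and 2, 5 and 3 between knockouts, as without it, no call of a member changed, and all genes called in Xap5 KO went from 6064 to 5916. Depth limits Tbx5, Tbx20 and Pitx1, at 0 to 6 counts, and WT had only 2 libraries.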
